A study of Mus musculus with 12 samples.

Results

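The genes described here are 9 genes of the epithelial acute phase and oxidase response in mouse small bowel: Saa1, Saa2, Saa3, Lcn2, Slpi, Duox2, Duoxa2, Nos2 and Socs3. They were matched by symbol, and all 9 were found among the 35791 genes counted. RNA was counted in 12 libraries, 3 in each of 4 groups, from male C57BL/6 mice submitted to ileocecal resection, which removes the end of the ileum together with the cecum, at 8 to 10 weeks of age. The groups were bowel taken 8 weeks after resection from the arm given 2'-fucosyllactose (Post 2'-FL), bowel labelled as taken before resection but as supplemented (Pre 2'-FL), bowel taken 8 weeks after resection in the unsupplemented arm (Post control) and bowel labelled as taken before resection in that arm (Pre control). 2'-FL is a fucosylated sugar of human milk, given at 2.5 g/L. According to the labels the supplement began on day 0, the day of resection, although the Pre 2'-FL libraries are labelled as supplemented, and 1 protocol entry places the collection of every bowel 8 weeks after surgery. The liquid diet with day 7 is entered for all groups alike. The labels do not say which segment of small bowel was taken, how the supplement was delivered, or whether libraries came from separate mice, so p-values measure the spread between libraries.

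These genes belong to the alarm programme of barrier epithelium. Interleukin 22, interleukin 6 and related cytokines signal through STAT3, and bacterial products and interleukin 1 or 17 signal through NF-kappaB and C/EBP factors; together they switch on secreted defence proteins and enzymes that make oxidants at the cell surface. The serum amyloid A proteins (Saa1, Saa2, Saa3) bind retinol and lipid and are made in the ileum on contact with adherent bacteria as well as in liver. Lipocalin 2 (Lcn2) captures bacterial siderophores, Slpi inhibits neutrophil serine proteases and kills bacteria, Duox2 releases hydrogen peroxide to the lumen once its maturation factor Duoxa2 has brought it to the apical membrane, Nos2 makes nitric oxide, and Socs3 closes the loop by blocking the gp130 receptor and its kinases.

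Slpi was the member that rose after resection in both arms, 8.40-fold with 2'-FL and 4.205-fold without. The call in the unsupplemented arm was lost without single libraries. Saa1 and Saa3 were higher in Post 2'-FL than in Post control, and Duox2 was lower, while Duoxa2 did not pass the test. Of these calls only that of Saa3, on 37 against 3 counts, held after a correction for transcript length and GC content. Those of Saa1 and Duox2 were each lost without single libraries. Socs3 fell after resection in the 2'-FL arm. Lcn2 and Nos2 passed the test in none of the comparisons. Saa2 was too low to test, which left 8 tested members. Calls are genes with an adjusted p below 0.05 over the 13154 genes tested.

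Libraries held 5663275 to 9385266 counts, so 1 count corresponded to 0.107 to 0.177 CPM, the count scaled to a common library size. The level of a gene relative to its own mean followed transcript length, with a Spearman's rho across 12654 genes, which are not independent, of -0.60 to -0.44 for Post 2'-FL, 0.36 to 0.50 for Pre 2'-FL, -0.21 to 0.35 for Post control and 0.26 to 0.45 for Pre control. The main changes are therefore also given after a correction for transcript length and GC content. Fold changes depend on scaling as well: with library totals in place of TMM the median change of all tested genes moved to -0.47 from -0.13 (log2) for Post 2'-FL against Pre 2'-FL, and 29.2% of its called genes were higher, against 45.7% with TMM; for Post 2'-FL against Post control the median moved to -0.21 from 0.02, and 33.1% were higher, against 49.3%. Over both arms 33.5% of the called genes were higher with library totals and 44.9% with TMM, and for the difference between arms 19.1% and 48.2%. Marker levels differed between groups too. The summed level of 9 epithelial markers was 7071 to 12590 CPM in Post 2'-FL, 9883 to 12515 CPM in Pre 2'-FL, 16310 to 17483 CPM in Post control and 10877 to 16325 CPM in Pre control, and 3 of the 9 were lower in Post 2'-FL than in Post control. The 6 smooth muscle markers summed to 1292 to 1541 CPM in Post 2'-FL and 503 to 780 CPM in Post control, and 3 of the 6 were higher. Of all tested genes 18.8% were higher and 19.3% lower in Post 2'-FL against Post control. Of 6 markers of the distal small bowel, 1 was higher and 2 lower in Post 2'-FL against Pre 2'-FL, also after correction. In Post control against Pre control 3 were lower, also after correction. Of all tested genes 55.3% and 10.8% were called in these comparisons, and 35.9% and 12.6% after correction. Fgf15, a hormone of the ileum, was at 0 in all 6 Post libraries, against 5.92, 22.3 and 6.78 CPM in Pre 2'-FL and 12.3, 24.5 and 0.357 CPM in Pre control. Cubn, an ileal uptake receptor, had 8.90, 31.9 and 22.5 CPM in Post 2'-FL, against 322, 260 and 334 CPM in Pre 2'-FL, and 108, 64.5 and 113 CPM in Post control, against 801, 559 and 302 CPM in Pre control. Slc51b of the same list went the other way. It had 342, 316 and 316 CPM in Post 2'-FL, against 78.4, 95.2 and 54.6 CPM in Pre 2'-FL. In the control arm it had 154, 212 and 136 CPM in Post control, against 88.9, 136 and 51.7 CPM in Pre control. As the segment taken is not given, the stretch of bowel sampled and the resection cannot be told apart in Post against Pre. In bulk tissue a change in the number of cells of a type and a change in RNA per cell cannot be told apart, and the part of these marker differences in the results was not tested.

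The members lie on chromosomes 2, 7 and 11 of mm10. Duox2 (chr2:122279246-122298740) and Duoxa2 (chr2:122298900-122302885) are head-to-head neighbours, transcribed away from each other. The start sites used for their promoter windows are 673 bp apart, and that of Duox2 (chr2:122298227) lies inside its gene span. Lcn2 (chr2:32384637-32387739) and Slpi (chr2:164354070-164356507) lie elsewhere on chromosome 2. Saa3 (chr7:46711998-46719615), Saa1 (chr7:46740497-46743181) and Saa2 (chr7:46751833-46754313) form a cluster on chromosome 7, and Nos2 (chr11:78920787-78960226) and Socs3 (chr11:117966079-117970336) lie on chromosome 11. All 9 are protein coding.

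Promoter sequences (250 bases before to 50 after the start site, RefSeq, GRCm38.p6) were found for 8 of the 9 members. For Duox2, Socs3, Saa1 and Saa3 the start site used lies inside the gene span given above, so other starts of these genes were not searched. The Saa1 and Saa2 windows are shown because they are nearly the same, with 287 identical bases and 95.3% identity over the aligned columns, while the counts of both genes differed widely. Capitals mark the C/EBP letters TTGCNNAA. Saa1 lies at chr7:46742931-46743230 on the minus strand and Saa2 at chr7:46751583-46751882 on the plus strand, each written 5′ to 3′ along the gene.
Saa1: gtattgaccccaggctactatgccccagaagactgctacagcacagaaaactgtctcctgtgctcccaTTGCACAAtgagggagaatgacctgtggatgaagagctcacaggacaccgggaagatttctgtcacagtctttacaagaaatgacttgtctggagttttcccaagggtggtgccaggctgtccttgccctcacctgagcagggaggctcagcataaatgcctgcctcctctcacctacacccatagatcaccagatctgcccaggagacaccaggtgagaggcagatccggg
Saa2: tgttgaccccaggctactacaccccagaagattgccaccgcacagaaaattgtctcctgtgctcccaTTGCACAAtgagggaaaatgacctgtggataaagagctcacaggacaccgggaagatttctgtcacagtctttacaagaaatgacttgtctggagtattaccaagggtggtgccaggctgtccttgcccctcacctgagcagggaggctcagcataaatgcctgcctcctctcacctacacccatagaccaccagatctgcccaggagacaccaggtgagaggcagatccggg

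The C/EBP letters begin 182 bases before the start in Saa1 and 183 before it in Saa2. Slpi is shown as the member called in both arms. Its window (chr2:164356458-164356757, minus strand) holds the same letters on the opposite strand, in capitals, at position -241.
Slpi: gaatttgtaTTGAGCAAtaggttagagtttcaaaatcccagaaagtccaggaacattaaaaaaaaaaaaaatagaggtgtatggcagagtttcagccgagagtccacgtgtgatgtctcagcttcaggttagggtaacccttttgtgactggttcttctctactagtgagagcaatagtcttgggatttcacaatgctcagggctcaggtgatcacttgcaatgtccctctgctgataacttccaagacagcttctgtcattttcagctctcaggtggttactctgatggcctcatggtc

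Searching both strands, TTGCNNAA was found in 5 of the 8 windows (Saa1, Saa2, Saa3, Lcn2 and Slpi) and in 10.1% of 17492 protein-coding promoters of the same length. Saa1 and Saa2 are near-copies and do not count as separate instances. The NF-kappaB consensus was found in none of the 8 and in 8.86% of all promoters. STAT letters (TTCNNNGAA) were found only in Socs3 among the 8, at position -154, and in 7.83% of all promoters. They are in capitals in the Socs3 window (chr11:117969317-117969616, minus strand), shown because Socs3 is the classical feedback target of STAT3.
Socs3: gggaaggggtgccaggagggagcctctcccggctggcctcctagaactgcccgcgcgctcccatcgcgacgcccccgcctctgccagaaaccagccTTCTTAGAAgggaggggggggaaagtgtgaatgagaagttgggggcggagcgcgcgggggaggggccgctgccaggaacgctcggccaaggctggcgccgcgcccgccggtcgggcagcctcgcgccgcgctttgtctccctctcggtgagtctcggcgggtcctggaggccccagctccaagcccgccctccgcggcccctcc

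The oxidase pair is shown because the ratio of its members was examined. The Duoxa2 window (chr2:122298650-122298949, plus strand) holds the TATA letters TATAAA, in capitals, at position -30; these occur in 13.3% of all promoters. The Duox2 window (chr2:122298178-122298477, minus strand), which lies within the annotated gene span, holds none of the 4 motifs searched.
Duoxa2: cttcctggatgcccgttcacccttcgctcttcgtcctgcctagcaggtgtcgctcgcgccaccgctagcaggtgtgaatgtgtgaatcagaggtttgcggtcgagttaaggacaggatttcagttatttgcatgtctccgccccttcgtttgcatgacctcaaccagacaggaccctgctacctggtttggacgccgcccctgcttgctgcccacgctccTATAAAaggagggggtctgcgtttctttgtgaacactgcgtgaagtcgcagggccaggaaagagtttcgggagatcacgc
Duox2: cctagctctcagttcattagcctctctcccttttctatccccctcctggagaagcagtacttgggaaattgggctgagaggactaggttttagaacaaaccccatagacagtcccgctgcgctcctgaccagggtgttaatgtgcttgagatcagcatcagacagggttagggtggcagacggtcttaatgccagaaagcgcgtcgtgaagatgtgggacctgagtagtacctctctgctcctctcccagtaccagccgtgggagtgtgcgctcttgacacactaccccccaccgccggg

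A match of letters describes the sequence and does not show that a factor binds there.

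Levels per kilobase of transcript compare genes only roughly here, because the trend with length differed between libraries. On this scale Duoxa2 and Socs3 were the most abundant members, with means over 12 libraries of 28.3 and 27.3 CPM per kb. Saa1 (16.5 CPM per kb) and Nos2 (15.1 CPM per kb) followed, then Slpi (7.51 CPM per kb) and Duox2 (5.51 CPM per kb). Lcn2 (2.09 CPM per kb), Saa3 (1.68 CPM per kb) and Saa2 (0.165 CPM per kb) were near the bottom of detection. The library ranges of each pair of neighbours in this order overlapped. Single libraries reached 114 CPM per kb for Duoxa2 (Post control 2), 122 for Socs3 (Pre 2'-FL 2) and 107 for Saa1 (Post 2'-FL 1). The spread of a member over the 12 libraries was wide, from 8.44-fold between the lowest and highest library for Lcn2 to 128-fold for Saa1.

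**Figure D1:**
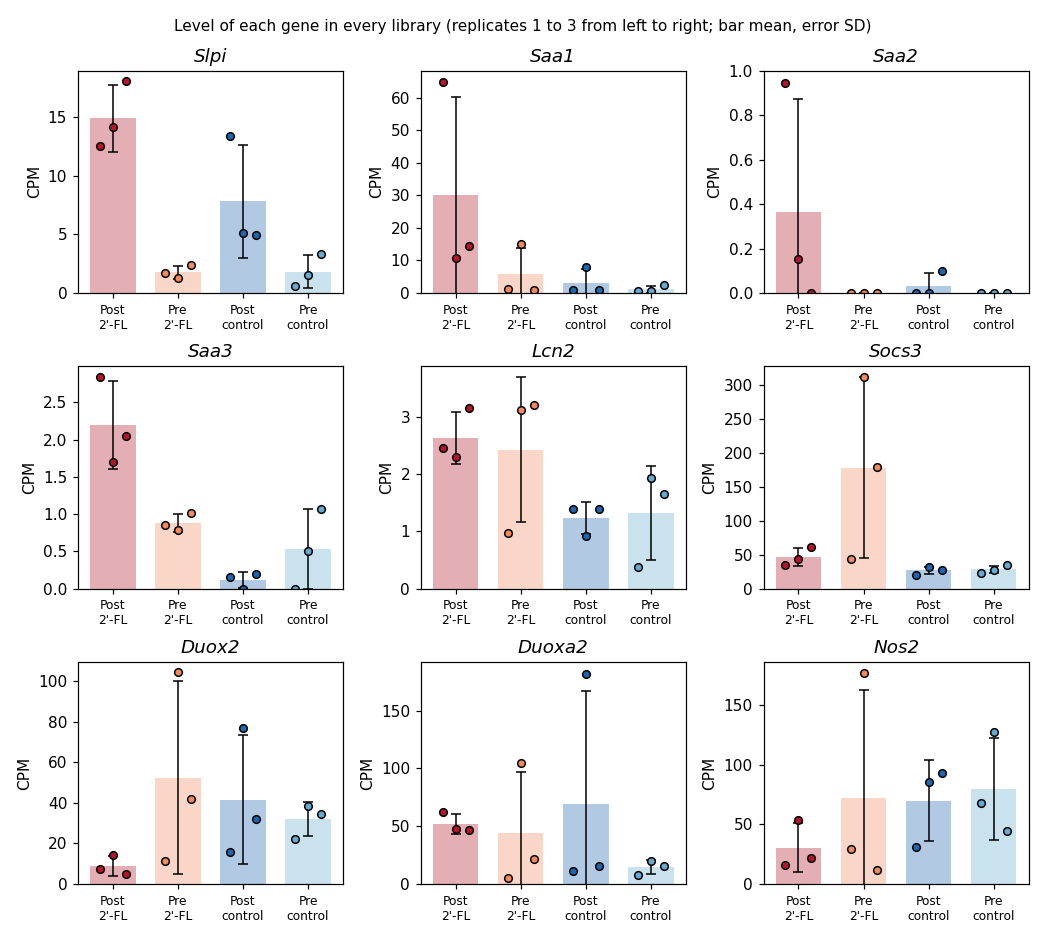
CPM (TMM-scaled) of each of the 9 genes in every library, grouped as Post 2'-FL, Pre 2'-FL, Post control and Pre control; points are libraries 1 to 3 from left to right, bars the mean and error bars the SD (n = 3). Slpi is higher in every Post library than in every Pre library, and 1 library carries most of the mean of Saa1, Duox2, Duoxa2 and Nos2 in the Pre 2'-FL group.

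Slpi had 12.5, 14.2 and 18.0 CPM in Post 2'-FL libraries 1 to 3, against 1.69, 1.25 and 2.37 CPM in Pre 2'-FL. It had 13.4, 5.12 and 4.91 CPM in Post control, against 0.636, 1.52 and 3.33 CPM in Pre control. All 6 Post libraries lay above all 6 Pre libraries; 17.0% of tested genes showed such a separation. The change was 3.07 ± 0.51 (log2, SE; adjusted p = 0.000246) for Post 2'-FL against Pre 2'-FL and 2.07 ± 0.50 (adjusted p = 0.0207) for Post control against Pre control. Over both arms it was 2.57 ± 0.36 (adjusted p = 7.7e-05). Slpi transcripts are short, at 876 nt, and among 10 bins of tested genes by length the shortest had a median change of 1.18 in the 2'-FL arm and 0.22 in the control arm. After the length and GC correction the Slpi changes were 2.20 ± 0.47 (adjusted p = 0.00282) and 2.00 ± 0.46 (adjusted p = 0.0157), and all 3 calls held. The control-arm call was lost without Post control 1, the highest library of its group (1.46, adjusted p = 0.100), and without Pre control 2 (1.98, adjusted p = 0.0672). The 2 arms were not shown to differ: the difference of their changes was 1.00 ± 0.71 (adjusted p = 0.350).

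Slpi protects tissue against the proteases of neutrophils, and the summed level of neutrophil markers was low. The 11 neutrophil markers together summed to 4.65 to 4.77 CPM in Post 2'-FL, 3.75 to 6.61 CPM in Pre 2'-FL, 2.77 to 3.84 CPM in Post control and 1.78 to 8.68 CPM in Pre control. Mpo, Ly6g and Ngp were at 0 in all 12 libraries. Cxcr2 (0.731 to 1.69 CPM) and Csf3r (0.379 to 2.73 CPM) were detected in all 12, and Retnlg reached 4.04 CPM in Pre control 3. The number of neutrophils was not measured. Of the 9 genes listed as related inhibitors (Wfdc1, Wfdc2 and others of the WAP domain family) and neutrophil proteases, 1 could be tested and it was called in no comparison. The genes closest to Slpi in profile over the 12 libraries were 9430038I01Rik and Nqo1, a quinone reductase, at a mean absolute difference of 0.48 and 0.51 in centred log2 CPM, where the median of 10128 genes was 1.26.

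Saa1 had 65.0, 10.8 and 14.5 CPM in Post 2'-FL, against 1.33, 15.0 and 1.02 CPM in Pre 2'-FL. It had 0.770, 8.04 and 0.802 CPM in Post control, against 0.509, 0.508 and 2.38 CPM in Pre control. Each Post 2'-FL library lay above each Post control library, but Pre 2'-FL 2 lay above 2 of the 3 Post 2'-FL libraries. Saa1 was 10.2-fold higher in Post 2'-FL than in Post control (log2 change 3.34 ± 1.04, adjusted p = 0.0213). Against Pre 2'-FL the change was 2.39 ± 0.97 (adjusted p = 0.0486). In the control arm it was 1.38 ± 1.25 (adjusted p = 0.480), and the difference between arms was 1.01 ± 1.61 (adjusted p = 0.700).

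The correction left 2.19 ± 0.94 (adjusted p = 0.108) against Post control and 1.08 ± 0.87 (adjusted p = 0.347) against Pre 2'-FL, so neither call held. Without Post 2'-FL 1, the highest library of all 12, the values were 2.08 (adjusted p = 0.174) and 1.14 (adjusted p = 0.371). The call against Post control was also lost without Post control 1 or 3, and that against Pre 2'-FL without Pre 2'-FL 1 or 3, with library totals or with DESeq2.

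Saa2 held 5, 1 and 0 counts in Post 2'-FL, 0, 0.5 and 0 in Pre 2'-FL, 0, 0 and 1 in Post control and none in Pre control. The 6 counts of Post 2'-FL correspond to 0.307 CPM of the group total (exact Poisson 95% interval 0.113 to 0.669 CPM). By the same interval the 0 of Pre control allows up to 0.143 CPM. Both cover counting error only. Saa1 held 491 counts in the same Post 2'-FL libraries. Of the 50-base stretches of the Saa1 transcript, 13.2% occur in Saa2 too, and how reads of such stretches were assigned is not given in the sources used here, so the split between both genes is uncertain.

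Saa3 had 2.84, 1.69 and 2.05 CPM in Post 2'-FL, against 0.846, 0.781 and 1.02 CPM in Pre 2'-FL. It had 0.154, 0 and 0.200 CPM in Post control, against 0, 0.508 and 1.07 CPM in Pre control. These are 37, 18, 3 and 14 counts over the 3 libraries of Post 2'-FL, Pre 2'-FL, Post control and Pre control. Post 2'-FL did not overlap either Pre 2'-FL or Post control. Saa3 was higher in Post 2'-FL than in Post control (log2 change 3.85 ± 0.82, adjusted p = 0.00282), and the call held after correction (2.67 ± 0.82, adjusted p = 0.0334). As a ratio of counts per total this is 13.4-fold, with an exact 95% counting interval of 4.25 to 68.1. Against Pre 2'-FL the change was 1.30 ± 0.62 (adjusted p = 0.0888), in the control arm -1.85 ± 0.95 (adjusted p = 0.207), and the difference between arms 3.15 ± 1.13 (adjusted p = 0.0706).

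The neighbours in profile differed between both tested amyloid genes. Reg3g and Reg3b, antibacterial C-type lectins of the epithelium, were closest to Saa1, at 0.68 and 0.76 where the median of 10128 genes was 1.86. Reg3b had 64832, 18692 and 41207 CPM in Post 2'-FL, against 1515, 8800 and 1401 CPM in Post control, and Post 2'-FL 1 and Post control 2 were the highest libraries of their groups for Reg3b as for Saa1. In Pre 2'-FL the order differed: Reg3b had 3204, 8829 and 11000.1 CPM and was highest in library 3, where Saa1 was lowest. Dpt and Aspn, matrix proteins of fibroblasts, were closest to Saa3, at 0.28 and 0.38 where the median was 1.02. Serum amyloid A is also made in liver. The 8 liver markers summed to 356 to 581 CPM in Post 2'-FL, 103 to 320 CPM in Pre 2'-FL, 473 to 1049 CPM in Post control and 129 to 258 CPM in Pre control, and Cyp3a11, which bowel epithelium makes as well, held most of each sum. Of the 4 tested, 2 were higher and 1 lower in Post 2'-FL against Pre 2'-FL, and 1 was higher in Post 2'-FL against Post control. Of all tested genes 55.3% and 38.1% were called in these comparisons. Cyp2e1 reached 91.0 CPM in Pre 2'-FL 1, and Apoa2 had 3.60, 1.85 and 2.79 CPM in Post 2'-FL, against 0.242, 0.313 and 0.339 CPM in Pre 2'-FL. Alb did not exceed 0.379 CPM in any library, and Fgb and Ahsg were at 0 in all libraries but Pre 2'-FL 2. Of the liver-made genes in the acute phase list, Crp and Apcs were at 0 and Saa4 held at most 0.2 counts, but others were detected. Hp held 209 counts, C3 546 and Orm1 20.5 in Pre 2'-FL 1, the highest library for each. The part of liver RNA in the Saa1 and Saa3 results was not tested.

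Lcn2 had 2.46, 2.31 and 3.16 CPM in Post 2'-FL, against 0.967, 3.13 and 3.22 CPM in Pre 2'-FL. It had 1.39, 0.914 and 1.40 CPM in Post control, against 0.381, 1.93 and 1.66 CPM in Pre control. Post 2'-FL lay above Post control without overlap, as 50.7% of tested genes lay on either side, yet the change of 1.06 ± 0.54 did not pass the test (adjusted p = 0.137; 0.32 ± 0.53 after correction). The other changes were 0.15 ± 0.51 (adjusted p = 0.821) in the 2'-FL arm and -0.10 ± 0.55 (adjusted p = 0.920) in the control arm. Lcn2 held 3 to 20 counts a library. Thbd and Fhl1 were its closest genes in profile, at 0.20 and 0.25 where the median of 10128 genes was 0.69. After the correction they were at 0.46 and 0.53. Of 8 genes for lipocalin receptors and iron handling, 5 were tested. Tfrc, the transferrin receptor, rose in Post 2'-FL against Pre 2'-FL (1.24 ± 0.27, adjusted p = 0.00168; 1.21 corrected) and against Post control (1.26 ± 0.27, adjusted p = 0.00315; 1.08 corrected). Ftl1, the ferritin light chain, rose against Pre 2'-FL (1.03 ± 0.24, adjusted p = 0.00277) but was not called after correction (0.43).

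Duox2 had 7.58, 14.5 and 4.84 CPM in Post 2'-FL, against 11.1, 104 and 41.7 CPM in Pre 2'-FL. It had 15.7, 77.0 and 31.9 CPM in Post control, against 22.4, 38.6 and 34.7 CPM in Pre control. Every Post 2'-FL library lay below every Post control library, while Pre 2'-FL 1 lay inside the Post 2'-FL range. Duox2 fell by 2.52 ± 0.70 (log2; adjusted p = 0.00727) against Pre 2'-FL, and the change was -2.18 ± 0.69 (adjusted p = 0.0231) against Post control. In the control arm it was 0.37 ± 0.64 (adjusted p = 0.723), and the difference between arms, -2.89 ± 0.94, had an adjusted p of 0.0504. Duox2 has the longest transcript of the 9, at 6112 nt, and genes of its length bin had a median change of -0.84 in the 2'-FL arm. After correction the changes were -1.28 ± 0.72 (adjusted p = 0.178) against Pre 2'-FL and -1.44 ± 0.72 (adjusted p = 0.164) against Post control, so neither call held. Without Pre 2'-FL 2 the first was -1.45 (adjusted p = 0.0725), and without Post control 2 the second was -1.34 (adjusted p = 0.143). Zfp142 and Atp10b were closest to Duox2 in profile, at 0.51 and 0.53 where the median was 1.07.

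Duoxa2, the maturation factor, had 62.3, 47.4 and 46.3 CPM in Post 2'-FL, against 5.08, 105 and 21.5 CPM in Pre 2'-FL. It had 11.4, 182 and 15.6 CPM in Post control, against 7.88, 20.3 and 15.5 CPM in Pre control. The mean was 52.0 ± 8.93 CPM (SD, n = 3) in Post 2'-FL and 43.8 ± 53.4 CPM in Pre 2'-FL, and 69.6 ± 97.1 CPM in Post control and 14.6 ± 6.27 CPM in Pre control; 1 library each, Pre 2'-FL 2 and Post control 2, held most of the level of its group. No comparison passed the test. The change was 0.25 ± 0.94 (adjusted p = 0.829) in the 2'-FL arm, 2.24 ± 0.98 (adjusted p = 0.146) in the control arm and -0.41 ± 0.93 (adjusted p = 0.756) for Post 2'-FL against Post control. The control-arm value rests on Post control 2: without it the change was -0.08. Part of the Duoxa2 transcript, 41.1% of its 50-base stretches, lies opposite to Duoxa1, and whether counting used strand is not given in the sources used here. Duoxa1 held 0 to 7 counts a library and Duoxa2 42 to 994. Tifa, an adaptor of NF-kappaB signalling, and B3gnt7 were closest to Duoxa2 in profile, at 0.64 and 0.69 where the median was 1.28.

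Because Duox2 needs Duoxa2, their ratio was examined, a choice made after their values had been seen. The log2 ratio of Duoxa2 over Duox2 in CPM was 2.99, 1.69 and 3.19 in Post 2'-FL, against -1.09, 0.01 and -0.94 in Pre 2'-FL. Post control libraries gave -0.45, 1.24 and -1.01, against -1.47, -0.92 and -1.15 in Pre control. The Post 2'-FL libraries lay above all other 9. The mean was 2.62 ± 0.81 (SD) in Post 2'-FL, -0.68 ± 0.60 in Pre 2'-FL, -0.08 ± 1.17 in Post control and -1.18 ± 0.28 in Pre control. Post 2'-FL exceeded Pre 2'-FL by 3.30 and Post control by 2.70, each with an exact two-sided permutation p of 0.100, the smallest that 3 against 3 libraries allow. Over 6 Post against 6 Pre libraries the difference was 2.20 (exact permutation p = 0.0216). Duoxa2 is the shorter transcript, 1592 nt against 6112 nt, and the correction brought this to 1.12 (exact permutation p = 0.0498) and the Post 2'-FL mean to 1.54 ± 0.58, with Pre 2'-FL at -0.11 ± 0.61 and Post control at -0.07 ± 0.91. After correction Post 2'-FL 2 (0.89) lay below Post control 2 (0.98). Adjusted over the 5 comparisons made of this ratio, the p of the 6 against 6 libraries was 0.108 as tested and 0.249 after correction.

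**Figure D2:**
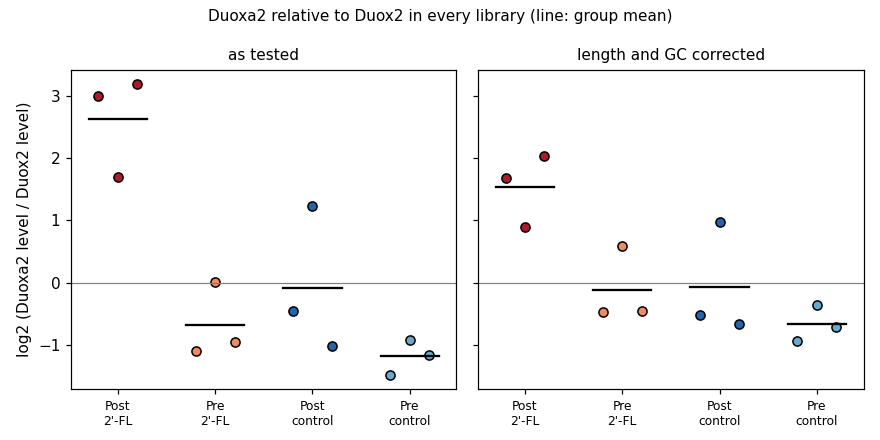
log2 ratio of the Duoxa2 level over the Duox2 level in every library (points) with the group mean (line), as tested on the left and after the length and GC correction on the right. The 3 Post 2'-FL libraries sit at 1.69 to 3.19 as tested, above all other libraries, and at 0.89 to 2.03 after correction, where they overlap Post control.

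Among 23 other genes of NADPH oxidases, their subunits and peroxide handling, 17 were tested. In Post 2'-FL against Pre 2'-FL 7 were higher and 2 lower, and 6 and 1 after correction. Of all tested genes 25.3% were higher and 30% lower in that comparison, and 35.9% were called after correction. Noxo1, the organiser subunit of the epithelial Nox1 oxidase, had 78.2, 59.9 and 71.4 CPM in Post 2'-FL, against 20.7, 30.6 and 22.5 CPM in Pre 2'-FL and 23.1, 41.3 and 28.6 CPM in Post control. It was higher in Post 2'-FL than in either group, without overlap, by 1.51 ± 0.24 (adjusted p = 0.000189; 1.66 corrected) and 1.18 ± 0.24 (adjusted p = 0.00209; 1.30 corrected). Nox1 itself did not exceed 1.20 CPM in any library. Cyba, the p22phox membrane subunit, rose by 1.44 ± 0.28 against Pre 2'-FL (adjusted p = 0.000755; 0.75 corrected). Gpx1 (1.85 ± 0.27, adjusted p = 9.75e-05; 1.28 corrected) and Prdx1 (1.71 ± 0.25, adjusted p = 9.53e-05; 0.97 corrected), which remove peroxides, rose in that comparison as well. Cybb, the oxidase subunit of phagocytes, fell in both arms, by 1.77 ± 0.29 (adjusted p = 0.000226; -1.56 corrected) with 2'-FL and by 1.71 ± 0.29 (adjusted p = 0.00486; -1.60 corrected) without. The 9 detected macrophage and monocyte markers summed to 272 to 595 CPM in Post 2'-FL and 300 to 520 CPM in Pre 2'-FL, and to 170 to 241 CPM in Post control and 315 to 558 CPM in Pre control. Lyz2 alone was 154 to 486 CPM of the Post 2'-FL sums. In each arm 3 of the 9 were lower, and 2 after correction. Over both arms 1 was higher and 3 lower, beside 56.4% of all tested genes called. After correction 0 were higher and 6 lower over both arms, beside 43.4%. Csf1r, the receptor that maintains macrophages, had 6.82, 8.78 and 8.00 CPM in Post 2'-FL, against 38.3, 55.0 and 78.3 CPM in Pre 2'-FL, and fell by 2.85 ± 0.37 (adjusted p = 5.43e-05; -2.04 corrected). Cd14 of the same list had 11.4, 7.39 and 11.9 CPM in Post 2'-FL, against 4.96, 5.94 and 6.78 CPM in Pre 2'-FL. It lay higher without overlap but was not called, and C1qa overlapped between these groups. The part of these markers in the Cybb result was not tested.

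Nos2 had 15.7, 54.0 and 22.0 CPM in Post 2'-FL, against 29.0, 176 and 12.03 CPM in Pre 2'-FL. It had 30.8, 85.4 and 92.8 CPM in Post control, against 67.5, 128 and 44.6 CPM in Pre control. Groups overlapped in every comparison. The change was -1.24 ± 0.76 (adjusted p = 0.181; -0.38 corrected) in the 2'-FL arm, -0.20 ± 0.74 (adjusted p = 0.880) in the control arm and -1.18 ± 0.76 (adjusted p = 0.235) for Post 2'-FL against Post control. In the 2'-FL arm it was 0.66 without Pre 2'-FL 2 and was called without Pre 2'-FL 3 (-1.74, adjusted p = 0.0483), so this value rests on single libraries. Scd2 and Slc26a2 were closest to Nos2 in profile, at 0.57 and 0.60 where the median was 1.03. Of 11 genes of nitric oxide and arginine handling, 9 were tested. In the 2'-FL arm 2 were higher and 4 lower, and 2 and 1 after correction, beside 55.3% and 35.9% of all tested genes called. Gch1, which makes the cofactor that nitric oxide synthases need, rose in that arm (1.52 ± 0.33, adjusted p = 0.00145; 1.62 corrected). Arg2, a competing arginase, rose by 1.31 ± 0.25 (adjusted p = 0.000577) but by 0.30 after correction, which was not called. Slc7a1, an arginine transporter, fell by 1.81 ± 0.39 (adjusted p = 0.00162) and was not called after correction (-0.52).

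Socs3 had 34.5, 43.6 and 61.4 CPM in Post 2'-FL, against 43.9, 311 and 179 CPM in Pre 2'-FL. It had 20.5, 31.1 and 28.0 CPM in Post control, against 22.5, 27.4 and 34.1 CPM in Pre control. The Pre 2'-FL libraries stood out: each lay above each Pre control library, and 2 of the 3 lay above all others of the series. Socs3 fell by 1.94 ± 0.48 in Post 2'-FL against Pre 2'-FL (adjusted p = 0.00366), and the call held after correction (-1.45 ± 0.47, adjusted p = 0.0276). In the control arm the change was -0.08 ± 0.48 (adjusted p = 0.925). The difference between arms, -1.85 ± 0.67, did not pass the test (adjusted p = 0.0713). Pre 2'-FL exceeded Pre control by 2.66 ± 0.49, with an adjusted p of 0.128 over all genes; DESeq2 called this difference, as did the fit without Pre 2'-FL 1 (3.14) and that with no filter on low counts. The comparison between both Pre groups had 2 genes called in all. Post 2'-FL lay above Post control without overlap, but the change of 0.81 ± 0.48 did not pass the test (adjusted p = 0.193; 1.18 ± 0.48, adjusted p = 0.0914, corrected). Over both arms Socs3 was called lower in Post (-1.01 ± 0.33, adjusted p = 0.0192) but not after correction (-0.68, adjusted p = 0.110) or without Pre 2'-FL 2 (-0.62, adjusted p = 0.0911).

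Of the other 7 members of the SOCS family, 1 rose and 4 fell in the 2'-FL arm (1 and 3 after correction). In that arm 55.3% of all tested genes were called, and 35.9% after correction. Socs7 (-2.11 ± 0.26, adjusted p = 4.56e-05; -0.75 corrected), Cish (-1.58 ± 0.30, adjusted p = 0.000554; -1.03 corrected) and Socs6 (-0.97 ± 0.25, adjusted p = 0.0055; -1.06 corrected) fell in the 2'-FL arm and were called after correction. Upstream, 8 of 19 cytokine receptors and JAK-STAT genes fell in that arm and none rose, where 30% of all tested genes fell and 25.3% rose. After correction 2 fell and 2 rose. Stat3 itself was at -1.29 ± 0.21 (adjusted p = 0.000194) and at -0.11 after correction, which was not called. Il6st, the gp130 receptor chain that Socs3 blocks, was at -1.47 ± 0.24 (adjusted p = 0.000227) and at -0.34 after correction. Rasd1 and Ncald were closest to Socs3 in profile, at 0.27 and 0.49 where the median of 10128 genes was 0.97. After the correction they were at 0.38 and 0.50.

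Counted together, 2 tested members were higher and 2 lower in Post 2'-FL against Pre 2'-FL, that is 4 of 8 beside 55.3% of all tested genes (25.3% higher and 30% lower), with a median change of 0.20 beside -0.13 for all genes. In Post control against Pre control 1 of 8 was called, beside 10.8% of all genes, with a median of 0.14 beside -0.05. Over both arms 2 of 8 were called, beside 56.4%. In Post 2'-FL against Post control 2 of 8 were higher and 1 lower, beside 18.8% and 19.3% of all genes and 38.1% in either direction, with a median of 0.87 beside 0.02. Between both Pre groups edgeR called 0 of 8, beside 0.0152% of all genes, with 1 at an unadjusted p under 0.05 and 1 called by DESeq2. For the difference between arms it called 0 of 8, beside 15.5%, with 3 at an unadjusted p under 0.05 (Saa3, Duox2 and Socs3) and 2 called by DESeq2. After the length and GC correction 2, 1, 1 and 1 of 8 were called in the first 4 of these comparisons, beside 35.9%, 12.6%, 43.4% and 21.7% of all genes. These shares are near or below those of all genes. Groups did not overlap for 2 of 8 members in Post 2'-FL against Pre 2'-FL (61.6% of all genes), 1 in Post control against Pre control (34.9%), 5 in Post 2'-FL against Post control (50.7%), 1 between both Pre groups (9.23%) and 1 over both arms (17.0%).

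**Figure D3:**
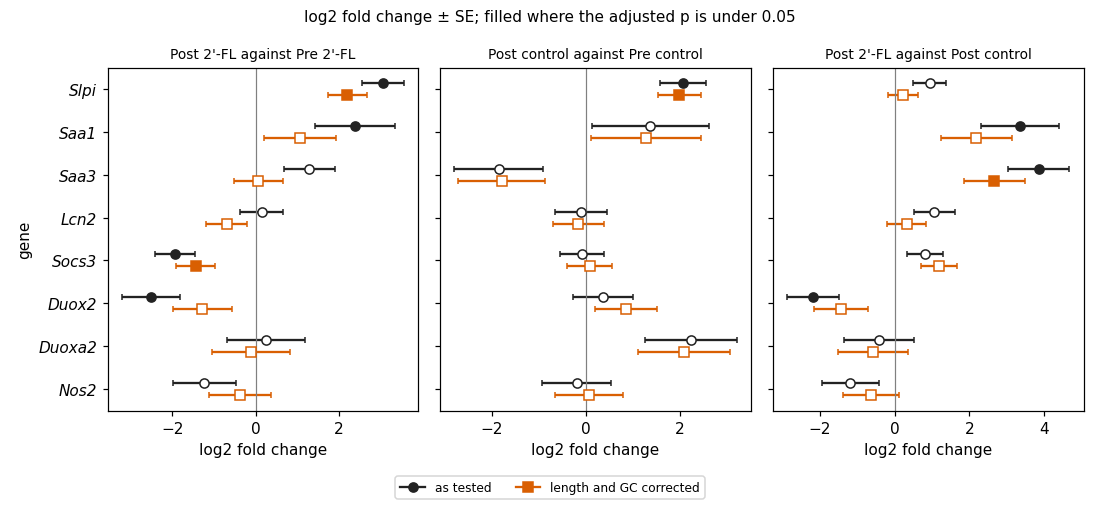
log2 fold change ± SE of the 8 tested genes in 3 comparisons, as tested (circles) and after the length and GC correction (squares); filled symbols have an adjusted p under 0.05. Slpi stays filled on both scales in both arms, while Saa1 and Duox2 are filled only before the correction.

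Changes in the 2'-FL arm went with transcript length across all tested genes. The median change of all tested genes ran down from 1.18 in the shortest of 10 length bins to -1.20 in the longest, and in the control arm from 0.22 to -0.37. The 4 tested members in the shortest bin, Saa1, Saa3, Lcn2 and Slpi (555 to 915 nt), had changes of 0.15 to 3.07 in the 2'-FL arm, Duoxa2 (1592 nt) had 0.25, and Nos2 (4192 nt) and Duox2 (6112 nt) had -1.24 and -2.52. Socs3, at 2552 nt, fell by 1.94 where the median of genes of its length was 0.07. Slpi and Socs3 remained called after the correction, at 2.20 and -1.45.

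**Figure D4:**
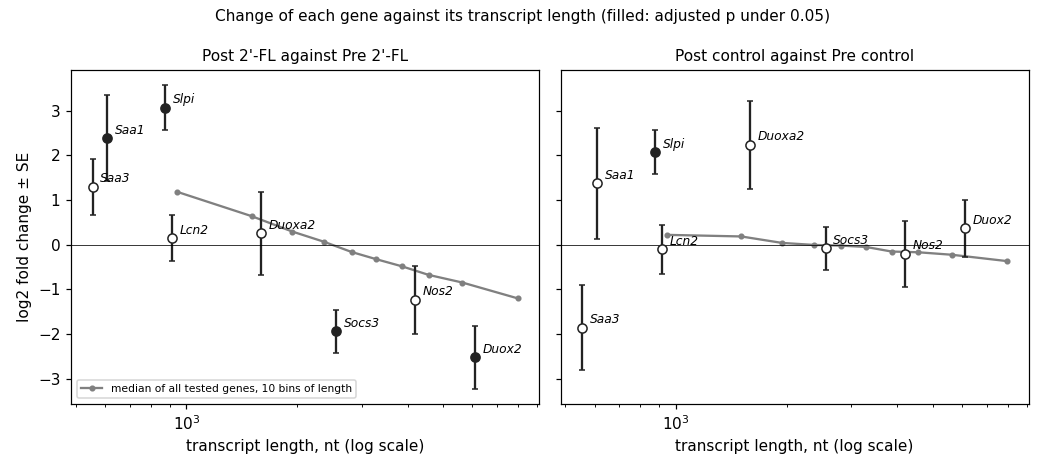
log2 fold change ± SE of the 8 tested genes against transcript length in nt (log scale), for Post 2'-FL against Pre 2'-FL (left) and Post control against Pre control (right); the grey line joins the medians of all tested genes in 10 bins of length, and filled points have an adjusted p under 0.05. The grey line falls with length far more on the left; Slpi lies above it in both panels, and Socs3 and Duox2 lie below it on the left.

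Within groups, several members shared their highest library, as 8 members over 3 libraries must. How often this holds over all genes was not computed. Pre 2'-FL 2 was the highest library of its group for 5 of the 8 tested members (Saa1, Duox2, Duoxa2, Nos2 and Socs3) and the highest of all 12 for Duox2, Nos2 and Socs3. Post control 2 was the highest of its group for Saa1, Duox2, Duoxa2 and Socs3, and the highest of all 12 for Duoxa2. Pre control 2 was the highest of its group for Lcn2, Duox2, Duoxa2 and Nos2, and Pre control 3 for Saa1, Saa3, Slpi and Socs3. Post 2'-FL 1 was the highest of all 12 for Saa1 and Saa3. Fabp6, a distal small bowel marker, was at 16.9 CPM in Pre 2'-FL 2 (0.483 and 0.508 in libraries 1 and 3) and 166 CPM in Pre control 2 (7.88 and 0.475). Ms4a1, a B cell marker, was at 24.1 CPM in Post 2'-FL 1 (0.462 and 0.744 in libraries 2 and 3). It was also at 22.1 CPM in Pre 2'-FL 1 and 19.3 CPM in Pre control 1, each highest of its group for 0 members. Il22, the cytokine that drives much of this programme in ileum and a listed ligand whose library values are given here because they were noticed, held 31 counts in Pre 2'-FL 2, 9.5 in Post 2'-FL 1 and at most 0.5 in each of the other 10. Post control 2 held 0 counts of Il22. The part of Il22, of the stretch of bowel and of B cells in these library differences was not tested. Among the members, Saa3 and Lcn2 (mean absolute difference 0.67 in centred log2 CPM over 12 libraries) and Duox2 and Nos2 (0.73) were the closest pairs. Duox2 and Duoxa2 were at 1.40, and at 0.89 after the correction.

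**Figure D5:**
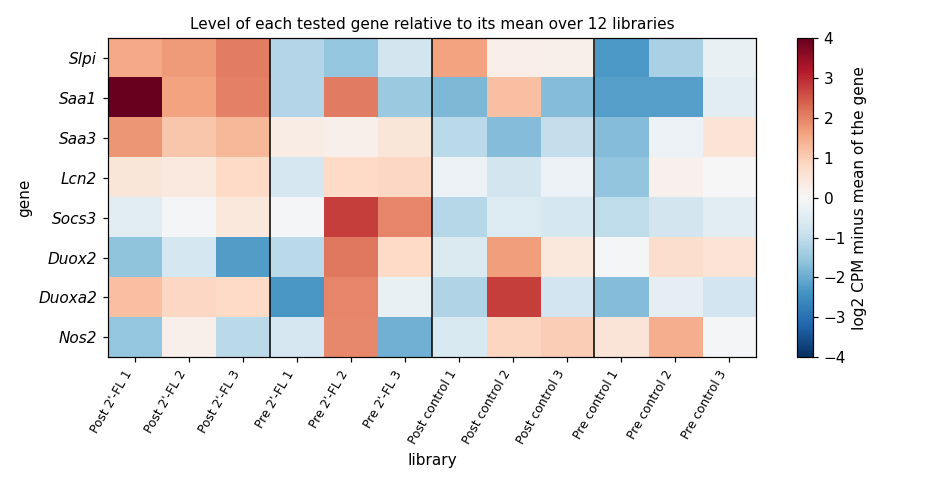
Level of each of the 8 tested genes in each of the 12 libraries as log2 CPM minus the mean of the gene over all libraries (colour scale from -4 to 4). Pre 2'-FL 2 is red in Saa1, Socs3, Duox2, Duoxa2 and Nos2, Post control 2 in Duoxa2 and Duox2, and the Post 2'-FL libraries in Slpi and Saa1.

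The wider network was followed in 141 listed genes of the same pathways, of which 96 were tested. In Post 2'-FL against Pre 2'-FL 18 were higher and 29 lower, that is 49.0% of the 96 beside 55.3% of all tested genes, and 30 were called after correction. In Post control against Pre control 2 were higher and 9 lower, 11.5% beside 10.8%, and 14 were called after correction. In Post 2'-FL against Post control 13 were higher and 15 lower, 29.2% beside 38.1%, and 18 were called after correction. These shares are near or below those of all genes. In the NF-kappaB list, Rela, its main activating subunit, fell in the 2'-FL arm (-1.46 ± 0.23, adjusted p = 0.000171; -0.83 corrected). Nfkbiz, the inhibitor-like cofactor needed for Lcn2 induction, had 53.3, 59.8 and 41.8 CPM in Post control, against 13.98, 16.7 and 19.4 CPM in Pre control, and rose by 1.63 ± 0.34 (adjusted p = 0.0117; 1.90 corrected). In the 2'-FL arm Nfkbiz was at 0.47 ± 0.33 (adjusted p = 0.241), where Pre 2'-FL 2 held 50.3 CPM.

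Of 18 other acute phase genes, 8 were tested; 4 were lower and none higher in the 2'-FL arm, where 30% of all tested genes were lower and 55.3% were called, and 2 were lower in the control arm, where 10.8% were called. Cp, the copper oxidase ceruloplasmin, fell by 1.81 ± 0.39 (adjusted p = 0.00156; -1.71 corrected) in the 2'-FL arm and by 1.43 ± 0.39 (adjusted p = 0.0342; -1.35 corrected) in the control arm. Hp (haptoglobin), with 209 counts, C3 (66.0 CPM) and Steap4 (8.10 CPM) were highest in Pre 2'-FL 1, the library in which 7 fat markers summed to 479 CPM, against 89.5 to 152 CPM in the other 11; the part of fat in the values of this list was not tested. In the mucosal defence list, Reg3b was higher in Post 2'-FL than in Post control (3.41 ± 0.76, adjusted p = 0.00355; 2.17 corrected, also called). Ang4 and Lyz1, products of Paneth cells, fell in the control arm by 2.27 ± 0.46 (adjusted p = 0.0107; -2.40 corrected) and 1.90 ± 0.46 (adjusted p = 0.0216; -2.08 corrected). Among 14 cytokine ligands, 5 could be tested. Il33 fell in both arms, by 0.85 ± 0.25 (adjusted p = 0.0106; -1.46 corrected) with 2'-FL and by 1.48 ± 0.26 (adjusted p = 0.00609; -1.59 corrected) without. Il18 rose by 1.66 ± 0.48 in the 2'-FL arm (adjusted p = 0.00924) and was at -0.05 after correction.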

How the data were processed

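RNA libraries were made with the TruSeq kit and sequenced on a HiSeq 2000, per the labels' protocols. The deposited files hold expected counts (estimated read counts per gene, 11.7% to 15.9% of them fractional), not normalised, and per the submitters' processing notes the build was mm10 and DESeq was used; no aligner, counter or strand setting is given in the sources used here. Entries of a gene listed at more than 1 place were summed (486 of 36186 entries) and sums rounded. In R 4.3.3, edgeR 4.0.16 tested all 12 libraries in 1 quasi-likelihood model of 4 group means with 8 residual degrees of freedom, after filterByExpr (13154 genes) and TMM, with Benjamini-Hochberg adjustment over all tested genes, two-sided; the biological coefficient of variation was 0.238. The difference between arms is the interaction term (2'-FL arm minus control arm). CPM are TMM-scaled. For the length and GC correction, centred log2 CPM (prior count 2) was fitted in each library by splines with 4 degrees of freedom on the length and GC content of the longest GENCODE transcript matched to RefSeq, and the fit entered edgeR as offsets. Ratios used log2 CPM with the same prior count. The script was tested on simulated counts. limma 3.58.1 (voom), DESeq2 1.42.0 and leaving out each library were alternatives. The members and lists were chosen with earlier results of these data known. All 9 members are named in each comparison; named pathway genes come from the 3 called genes of a list with the smallest p with a mean of at least 5 CPM, and for each member its 2 nearest genes by profile. Where a marker or library value drew attention, further genes are given beside it. Il22, Duoxa1, Nox1, Hp, C3, Orm1, Steap4, Csf1r, Cd14, C1qa, Cyp2e1, Apoa2, Fgf15, Cubn, Slc51b, Fabp6, Ms4a1, Cxcr2, Csf3r and Retnlg were chosen after their values were seen.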

Additional observations from a re-analysis of the deposited data

How the results depend on the processing

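No member reversed a called direction under any alternative: of 1037 repeats of 48 member changes, 970 kept their side of the threshold, 29 lost a call and 38 gained one. The length and GC correction left 4722 of 7274 genes called, 2 of 4 members and 30 of 47 pathway genes in Post 2'-FL against Pre 2'-FL, 2858 of 5011 genes, 1 of 3 members and 18 of 28 pathway genes in Post 2'-FL against Post control, 1 of 2 members over both arms, and 0 of 2038 genes and 0 of 10 pathway genes for the difference between arms. Over both arms 4 members were called with no filter on low counts, and 1 with limma-voom. Between both Pre groups (2 genes and 0 members called) there were 12 genes and 1 member with no filter, 24 genes and 1 member with DESeq2, and 1 gene when only these groups were fitted. For the difference between arms 2 members were called with library totals, 2 with no filter and 2 with DESeq2, which also called 17 pathway genes.

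Correlations of the deviations of same-numbered libraries ran from -0.23 to 0.42. In no pair of groups were all 3 above 0.1: those of the Pre groups were 0.42, 0.05 and 0.05, and the other pairs of groups held negative values, so the libraries were treated as sharing only a number. With the replicate block 4 members were called over both arms and 1 for the difference between arms. The replicate block with the length and GC correction gave 4610 genes, 2 members and 30 pathway genes in Post 2'-FL against Pre 2'-FL, 2721 genes and 1 member in Post 2'-FL against Post control, 1 member over both arms, and 0 genes and 0 pathway genes for the difference between arms.

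Leaving out 1 library gave 6215 to 7375 genes, 3 to 5 members and 33 to 48 pathway genes in Post 2'-FL against Pre 2'-FL. It gave 265 to 1843 genes, 0 to 1 members and 2 to 15 pathway genes in Post control against Pre control, and 6653 to 7478 genes, 1 to 4 members and 44 to 52 pathway genes over both arms. For Post 2'-FL against Post control the ranges were 3279 to 5384 genes, 1 to 4 members and 18 to 33 pathway genes. Between both Pre groups they were 0 to 17 genes, 0 to 1 members and 0 to 1 pathway genes, and for the difference between arms 424 to 3024 genes, 0 to 2 members and 3 to 17 pathway genes. The cause of these shifts was not tested. CPM by library totals moved 1 of 36 group means of members by more than 1 SD. That was Saa2 in Pre 2'-FL, where 0.5 counts had been rounded to 0 in the TMM-scaled values. Because several SDs were near or above their means, this criterion was a loose one. The Duoxa2 to Duox2 ratio, with alternatives chosen after seeing the data, differed by 1.82 to 2.66 between 6 Post and 6 Pre libraries when 1 was left out. Depth limits Saa2, Saa3 and Lcn2, which held at most 5, 15 and 20 counts a library.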
